A study of Sycon ciliatum with 26 samples.

Results

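Gene expression at day 2 was compared with day 1 after dissociation in the calcareous sponge Sycon ciliatum. The comparison rests on 4 of the 26 libraries of the series: 2 libraries of regenerating structures at day 2 and 2 libraries of regenerating structures at day 1, chosen by the day that the labels give. Each day has a replicate 1 and a replicate 2, which the labels also place in a first and a second sample set without saying what the libraries of a set share. The direction of change was read against cells that were dissociated from a whole animal and sequenced once, without a replicate. This library is called adult, after its title. No treatment, genotype or age of the parent animal is given in the labels, nor the number of animals behind a library. The p-values therefore measure a spread between libraries, part of which may be technical. For the tests of single gene IDs, this spread was taken from all 25 regenerating libraries. It is therefore not that of the compared libraries alone, and each later window spans more than a single day.

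Sponges can rebuild themselves from single cells. After an animal is dissociated, its cells adhere to one another again, sort within the aggregate, become enclosed by a new outer epithelium of pinacocytes and later form again the chambers of choanocytes, the flagellated collar cells that drive the feeding current. Days 1 and 2 are the first regenerating samples of the series, which continues to days 21 to 24. The title of the series sets regeneration against development after larval settlement, but the libraries described here contain no larval stage.

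The files hold raw read counts for 35307 gene IDs in each library. These IDs are assembled gene models, carry no gene names, and 0 of them matched the RefSeq table for the assembly ocSycCili1.1. Genes are therefore given by ID and at most 2 per direction are named, and no list of pathway or cell type genes could be examined. The labelled material could likewise not be checked against marker genes. Total counts were 11282902 and 7425481 in the libraries of day 2 and 26087749 and 9835656 in those of day 1, against 11398214 in the adult library. Replicate 1 of day 1 was the deepest library of the series; all others held 7425481 to 15395912 counts. The 10 most abundant gene IDs took 7.98% and 9.27% of the counts at day 2, and 8.44% and 8.85% at day 1. The replicates of each day were distinct libraries: the chi-square per gene ID between them was 47.2 at day 2 and 67.8 at day 1, far above the value of 1 that counting noise alone would give.

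Few gene IDs were called when the replicates of each day were compared without pairing, a count that does not measure how many changed. In edgeR's quasi-likelihood test, which took the spread from all 25 regenerating libraries, 7 of 23995 gene IDs had a Benjamini-Hochberg adjusted p under 0.05, or 0.0292% of those tested. At day 2, 2 of them were higher (0.00834%) and 5 were lower (0.0208%). Without adjustment, 2044 gene IDs (8.52%) had a p under 0.05, of which 719 were higher (3.0%) and 1325 lower (5.52%); about 5% of unchanged genes would reach it. DESeq2's Wald test on the same 23995 gene IDs called 89, with 23 higher and 66 lower. It gave no adjusted p for 5156 gene IDs. The number of edgeR calls depended on single libraries. It was 2 without replicate 2 of day 2, 0 without replicate 1 of day 2, 1 without replicate 1 of day 1 and 0 without replicate 2 of day 1. Upper-quartile scaling, which moved the median log2 fold change of all gene IDs by 0.12, left 3 calls, 2 higher and 1 lower (66.7% higher, against 28.6% under the main scaling).

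The called rises were those of MSTRG.5101 and MSTRG.20708. MSTRG.5101 stood at 52.0 and 11.4 CPM (counts scaled to the size of the library) in replicates 1 and 2 of day 2, against 0.882 and 0.226 CPM in replicates 1 and 2 of day 1. These levels correspond to 549 and 77 counts at day 2, against 20 and 2 counts at day 1. The groups did not overlap, although replicate 1 was above replicate 2 on both days. The mean was 31.7 ± 28.7 CPM at day 2 and 0.554 ± 0.464 CPM at day 1 (SD, n = 2 each), with a fitted log2 fold change of 5.70 in edgeR (adjusted p = 0.0272). Among regenerating libraries its high level was found at day 2 alone. MSTRG.5101 averaged 1.25 ± 1.02 CPM (SD, n = 6) at days 3 to 4, and no library of any later window exceeded 3.16 CPM. The adult library held 32.2 CPM. The fitted log2 fold change of MSTRG.5101 depended on single libraries: it was 4.22 without replicate 1 of day 2, 6.38 without replicate 2 of day 2, 7.08 without replicate 1 of day 1 and 5.17 without replicate 2 of day 1. Its edgeR adjusted p was then 0.358, 0.0317, 0.352 and 0.203, in the same order.

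MSTRG.20708 had 32.0 and 10.7 CPM in replicates 1 and 2 of day 2, against 0.971 and 0.339 CPM in replicates 1 and 2 of day 1. Its groups did not overlap either, and replicate 1 was again the higher library on both days. The mean was 21.4 ± 15.1 CPM at day 2 and 0.655 ± 0.446 CPM at day 1 (SD, n = 2 each), with 4.92 as the log2 fold change fitted by edgeR (adjusted p = 0.0272). Its mean at days 3 to 4 was 2.71 ± 1.00 CPM (SD, n = 6), below both libraries of day 2 and above both of day 1. Later windows had means of 3.01 to 4.22 CPM, and the adult library held 5.53 CPM. Without replicate 1 of day 2, the log2 fold change of MSTRG.20708 was 3.90 (edgeR adjusted p = 0.358). It was 5.47 without replicate 2 of day 2 (edgeR adjusted p = 0.0343), 5.95 without replicate 1 of day 1 (edgeR adjusted p = 0.369) and 4.46 without replicate 2 of day 1 (edgeR adjusted p = 0.203). Changes of at least 16-fold were not limited to the called gene IDs. In both replicates, 15 gene IDs were at least 16-fold higher at day 2, of which edgeR called 2 and DESeq2 called 7. At least 16-fold lower in both were 7 gene IDs, of which edgeR called 0 (7 had an unadjusted p under 0.05) and DESeq2 called 1.

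The called decreases were smaller than the called rises, and not all were even between replicates. In replicates 1 and 2 the change in log2 CPM was -1.91 and -1.49 for MSTRG.32073, and -1.63 and -2.89 for MSTRG.30563. MSTRG.32073 had 21.4 and 24.5 CPM at day 2, against 84.7 and 70.2 CPM at day 1. The mean was 22.9 ± 2.16 CPM at day 2 and 77.5 ± 10.2 CPM at day 1 (SD, n = 2 each), with a log2 fold change of -1.73 in the edgeR fit (adjusted p = 0.026). Day 2 was the low point of the series for this gene ID, since the later windows had means of 37.9 to 54.8 CPM and no library of them was below 26.2 CPM. The adult library held 32.6 CPM, above day 2 and below day 1. MSTRG.30563 had 7.49 and 7.41 CPM at day 2, against 24.6 and 57.0 CPM at day 1. The mean was 7.45 ± 0.0499 CPM at day 2 and 40.8 ± 22.9 CPM at day 1 (SD, n = 2 each), with a log2 fold change of -2.43 in the edgeR fit (adjusted p = 0.0335). It stayed between 4.91 and 18.7 CPM in the libraries of all later windows, while the adult library held 25.4 CPM, within the range of day 1. With a library left out, the log2 fold change of MSTRG.32073 was -1.67 and -1.87 without replicate 1 and 2 of day 2 and -1.59 and -1.86 without replicate 1 and 2 of day 1, and it was called in none of these fits (edgeR adjusted p from 0.0506 to 0.285). That of MSTRG.30563 was -1.70 without replicate 2 of day 1 (edgeR adjusted p = 0.257) and -2.91 without replicate 1 of day 1 (edgeR adjusted p = 0.0284). Without replicate 1 or 2 of day 2 it was -2.46 and -2.45, with an edgeR adjusted p of 0.358 and 0.651. The other 3 called decreases had fitted log2 fold changes of -1.61 to -1.37, with 17.8 to 44.0 CPM in the libraries of day 2 and 52.8 to 110.8 CPM in those of day 1. In the adult library these 3 stood at 9.18 to 19.1 CPM.

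**Figure D1:**
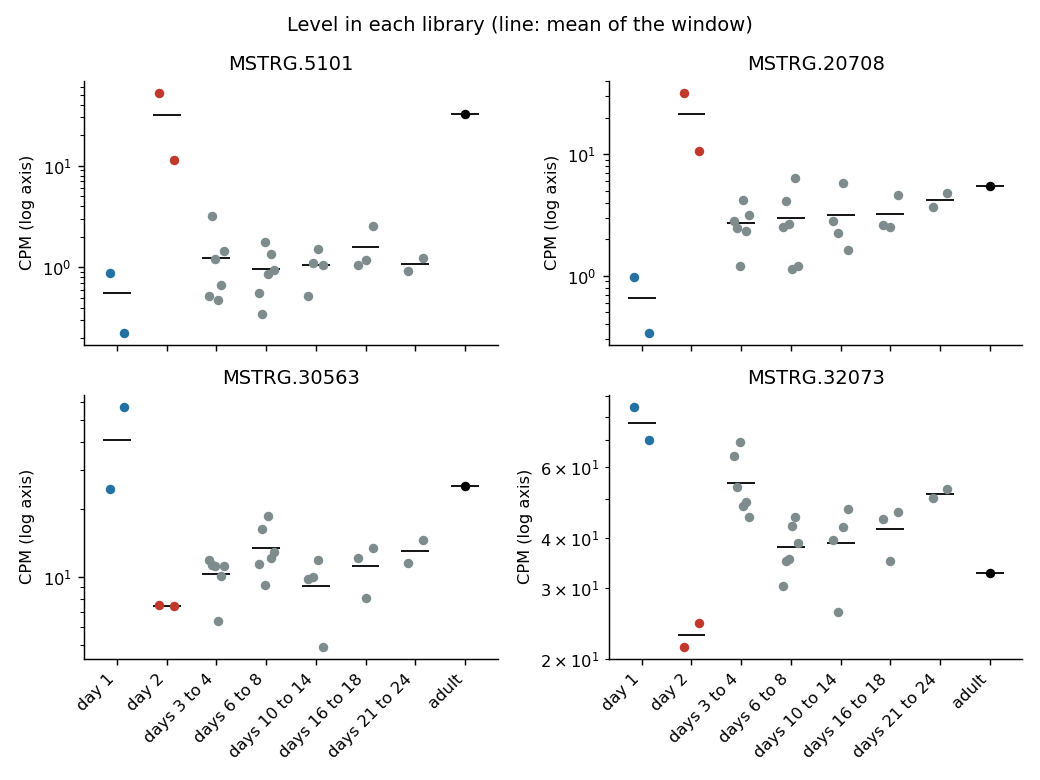
Level in every library, in CPM on a log axis, of the 2 gene IDs with the largest called rise (upper panels) and the 2 with the largest called decrease (lower panels) at day 2; points are libraries, red for day 2, blue for day 1, grey for later windows and black for the adult library, and lines are means of a window. MSTRG.5101 is at 52.0 and 11.4 CPM at day 2 and at 32.2 CPM in the adult library, and at or below 3.16 CPM in the other libraries.

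The differences between the days were of about the same size as those between replicates of a day. Changes are given from here on as differences of log2 CPM (prior count 2) over the 23995 gene IDs tested. Within replicates 1, day 2 minus day 1 had an SD of 0.84 across gene IDs, and 4355 gene IDs (18.2%) differed at least 2-fold, 1739 higher (7.25% of those tested) and 2616 lower (10.9%) at day 2. Within replicates 2 the SD was 0.95, and 5254 gene IDs (21.9%) differed at least 2-fold, 1963 higher (8.18%) and 3291 lower (13.7%) at day 2. Decreases of this size outnumbered increases in both. Between the replicates of one day, the SD was 0.85 at day 2 and 0.79 at day 1, with 4700 gene IDs (19.6%) at least 2-fold apart at day 2 and 3801 (15.8%) at day 1.

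The balance between both kinds of difference turned with abundance. Among 1447 gene IDs with a mean of at least 100 CPM over the regenerating libraries, 6.84% in replicates 1 and 7.74% in replicates 2 differed at least 2-fold between the days. More differed that far between replicates, 15.6% at day 2 and 15.1% at day 1. Among 9663 gene IDs of 1 to 10 CPM the order was the other way, with 21.1% and 25.8% between the days, against 19.8% between the replicates of day 2 and 15.9% between those of day 1. Below 1 CPM, where counting error is largest, the shares were 29.4% and 38.3% between the days, and 34.6% at day 2 and 22.5% at day 1 between replicates. The replicate differences were partly shared by the days. Their Pearson correlation was 0.54 across all gene IDs and 0.87 at 100 CPM or more. At that level replicate 1 was at least 2-fold above replicate 2 for 28 gene IDs and below it for 197 at day 2. At day 1 these were 29 and 190. The size of replicate differences is thus no measure of the error of a change within same-numbered libraries.

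**Figure D2:**
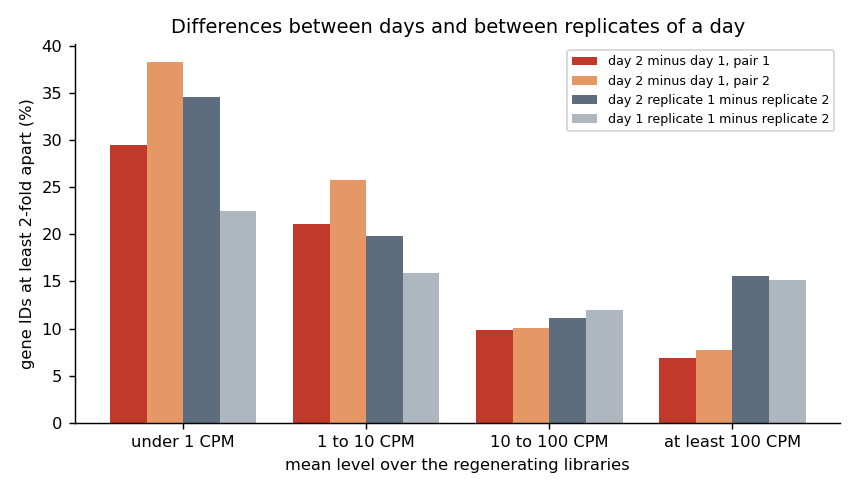
Share of gene IDs at least 2-fold apart, in percent, by mean level over the regenerating libraries; pair 1 and pair 2 are day 2 minus day 1 in replicates 1 and replicates 2, and the grey bars are the 2 replicates of one day. At 100 CPM and above, the replicates of a day differ in 15.6% (day 2) and 15.1% (day 1) of gene IDs, against 6.84% and 7.74% for the days. The replicate differences of both days have a Pearson correlation of 0.87 in this class.

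The change from day 1 to day 2 was nevertheless shared in part by replicates 1 and replicates 2. The 2 sets of changes share no library. Their Pearson correlation was 0.61 and their Spearman correlation 0.55 across the 23995 gene IDs, which are not independent replicates. The direction was the same in 69.8% of gene IDs, a share that also counts gene IDs without change in both. Of the 23995, 764 were at least 2-fold higher and 1623 at least 2-fold lower at day 2 in both. Another 117 moved at least 2-fold in opposite directions, 76 of them below 1 CPM. Agreement was weakest among the least abundant gene IDs. The Pearson correlation was 0.47 below 1 CPM, 0.65 at 1 to 10 CPM, 0.74 at 10 to 100 CPM and 0.72 at 100 CPM or more. In the class of 10 to 100 CPM, 147 gene IDs were at least 2-fold higher and 373 at least 2-fold lower in both, and 5 moved that far in opposite directions.

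**Figure D3:**
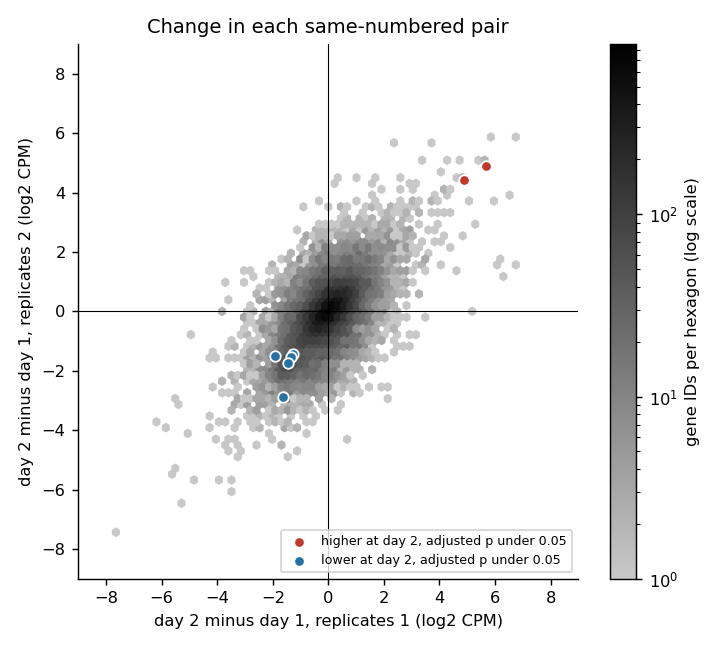
Day 2 minus day 1 in log2 CPM for each gene ID, in replicates 1 (horizontal axis) and replicates 2 (vertical axis); darker hexagons hold more gene IDs, and coloured points are the 7 gene IDs called by edgeR. The cloud is stretched along the diagonal (Pearson correlation 0.61), and the 2 called rises, with changes of 4.43 to 5.69, lie near its upper end.

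Gene IDs with a large change in one pair of libraries were then read in the other pair, whose values had no part in the choice. Replicates 1 gave 312 gene IDs at least 4-fold higher at day 2 (1.3% of those tested). In replicates 2, 279 of these (89.4%) were higher at day 2, against 46.9% of all gene IDs, with a median change of 1.87. Replicates 1 also gave 352 gene IDs at least 4-fold lower (1.47%), of which 326 (92.6%) were lower in replicates 2, against 51.3% of all gene IDs, with a median change of -1.90. The reverse choice gave the same picture. Of 434 gene IDs at least 4-fold higher in replicates 2 (1.81%), 380 (87.6%) were higher in replicates 1, against 48.1% of all. Of 846 at least 4-fold lower in replicates 2 (3.53%), 772 (91.3%) were lower in replicates 1, against 50.9% of all. The share that kept its direction, taken over both directions, averaged 90.6% ± 0.79 (SD over the 2 orders). It was 79.7% at a prior count of 0.5, which enlarges changes of low counts, and 96.3% among gene IDs with a mean of at least 5 CPM. The median change in the reading pair was smaller than in the choosing pair, 1.87 against 2.45 for the 312 gene IDs.

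A count that does not depend on how libraries are paired gave the same surplus of decreases. Both libraries of day 2 were at least 2-fold above both libraries of day 1 for 437 gene IDs (1.82%) and at least 2-fold below both for 1167 (4.86%), together 1604 (6.68%). At least 4-fold apart were 204 gene IDs (0.85%), 89 higher (0.371%) and 115 lower (0.479%). Without a minimum gap, 4428 were higher (18.5%) and 5677 lower (23.7%) with no overlap, 42.1% of all tested. At 100 CPM or more, 256 of 1447 gene IDs were higher (17.7%) and 184 lower (12.7%) with no overlap. Both of these shares were below those over all gene IDs. Decreases outnumbered increases in each abundance class at the 2-fold level. Of 8086 gene IDs at 10 to 100 CPM, 86 were higher (1.06%) and 272 lower (3.36%). Of 1447 at 100 CPM or more, 7 were higher (0.484%) and 31 lower (2.14%). In both classes each share was below that over all gene IDs. At the 4-fold level the direction turned at 10 to 100 CPM, with 23 higher (0.284%) and 7 lower (0.087%), against 0.371% and 0.479% of all tested. In bulk samples such as these, a loss of cells of one type and less RNA per cell cannot be told apart.

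The sets chosen in one pair were followed into later windows, each set against the day 1 library of the other pair. The gene IDs that were higher at day 2 had smaller medians afterwards. For the 312 chosen in replicates 1, the median over gene IDs was 1.85 above day 1 at day 2 on the log2 scale and 0.71 above it at days 3 to 4, where single libraries ranged from 0.08 to 1.48. It then lay between 0.62 and 1.03 in the windows up to days 21 to 24. For the 434 chosen in replicates 2 the median was 1.39 at day 2, 0.67 at days 3 to 4 and 0.79 to 0.96 thereafter. Single libraries gave these 434 medians of up to 1.35 at days 3 to 4 and up to 1.61 at days 10 to 14. The latter is above day 2, which in each set is read in 1 library. Over all 23995 gene IDs the medians lay between -0.09 and 0.01 in every window and the adult library.

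The gene IDs that were lower at day 2 had medians below day 1 in all later windows. For the 352 chosen in replicates 1 the median was -1.92 at day 2 and -1.29 at days 3 to 4. It was -1.39 at days 6 to 8, -1.65 and -1.72 in the windows that follow, and -2.02 in the last. The 846 chosen in replicates 2 had a lower median in each further window, with a median of -1.48 at day 2, -1.69 in the window that follows and -2.48 at days 6 to 8. In the last window their median was -3.14, and 69.6% of these 846 were at least 2-fold below day 1, against 23.1% of all gene IDs. The set from replicates 1 was thus nearer to day 1 in 4 of the 5 later windows than at day 2, the last window being the exception, while the set from replicates 2 was farther from it in all 5. Replicate 1 of day 1, against which the 846 were read, is the deepest library.

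**Figure D4:**
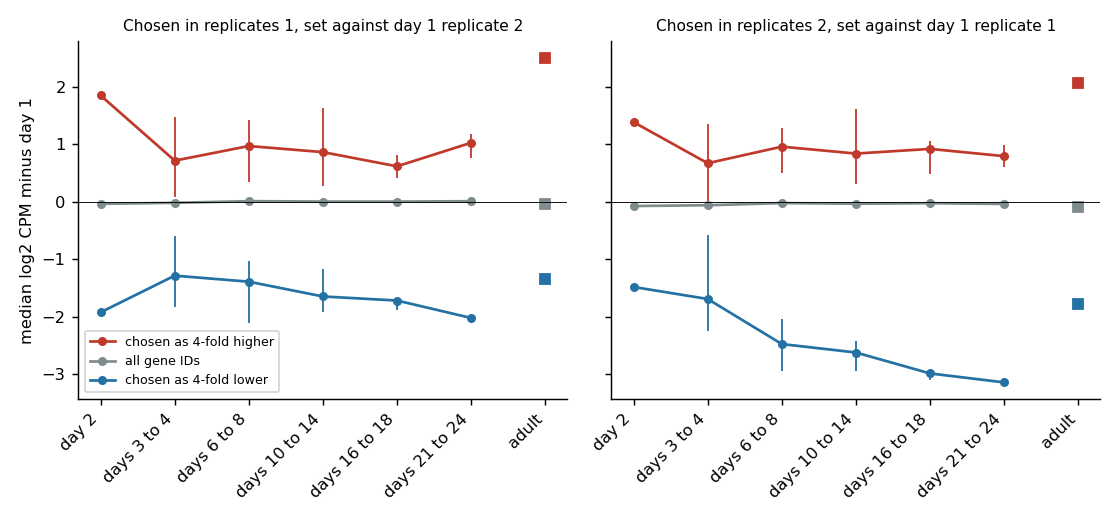
Median log2 CPM minus day 1 over the gene IDs chosen as at least 4-fold higher (red) or lower (blue) at day 2 in one pair, and over all gene IDs (grey), read against the day 1 library of the other pair; circles are windows, squares the adult library, and vertical lines span the single libraries of a window. The red medians drop to 0.71 and 0.67 at days 3 to 4 and are 2.51 and 2.07 in the adult library.

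Day 2 was more like the adult library than day 1 was. Spearman's correlation with the adult library across the 23995 gene IDs was 0.854 and 0.851 for replicates 1 and 2 of day 2, and 0.815 and 0.805 for replicates 1 and 2 of day 1. Both libraries of day 2 were above both of day 1. The difference of the means was 0.0421 (exact two-sided permutation p = 0.333, the smallest p that 2 libraries against 2 allow). With all libraries thinned to 7425481 counts the correlations were 0.850 and 0.848 at day 2, against 0.809 and 0.802 at day 1. The size of the difference depended on the filter. It was 0.0758 among gene IDs with a mean of at least 5 CPM (0.758 at day 2 and 0.682 at day 1) and 0.0235 without a filter on low counts (0.877 at day 2 and 0.853 at day 1). At least 4-fold from the adult library lay 14.7% and 15.2% of gene IDs at day 2, against 18.8% and 19.6% at day 1.

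The labels give the same index sequence to the adult library and to replicate 2 of day 2. Replicate 1 of day 2 carries another index; its correlation with the adult library was 0.854, and that of replicate 2 was 0.851. The part of the shared index in these values was not tested.

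Seen gene by gene, the movement was partial. In replicates 1, 56.1% of gene IDs were nearer to the adult library at day 2 than at day 1, and in replicates 2 this was 54.3% (mean 55.2% ± 1.27, SD, n = 2 pairs). The share was 49.6% below 1 CPM and 58.2% at 10 to 100 CPM. Gene IDs at the same distance on both days counted as not nearer, so the remainder did not all move away. Day 2 had covered 19.7% of the way from day 1 to the adult library in replicates 1 and 25.2% in replicates 2, a mean of 22.4% ± 3.90 (SD, n = 2 pairs). This is the projection of the change on the gap between day 1 and the adult library. The gap is taken from the day 1 library of the other pair, so that an error in a day 1 library does not count as movement. The projection is scaled by a product of the gaps of both day 1 libraries, which is the same for both pairs. Both values also share the adult library, so their SD is no spread of independent pairs. At 100 CPM or more the share of the way was lower, 10.0% in replicates 1 and 16.9% in replicates 2.

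The change was larger where day 1 stood farther from the adult library, and larger for decreases. Where the adult library was at least 4-fold below replicate 2 of day 1 (2410 gene IDs), the median change in replicates 1 was -0.67, and 74.4% of gene IDs moved towards the adult library. Where it was at least 4-fold above (2289 gene IDs), the median was 0.39 and 66.2% moved towards it. The same reading with replicates exchanged gave -1.06 and 80.1% for 2108 gene IDs below, and 0.51 and 68.3% for 2411 above. Gene IDs under 2-fold from the adult library had medians of -0.08 to 0.03 in both readings. Changes of at least 2-fold away from the adult library were found in 2.51% to 3.03% of the gene IDs whose adult level was at least 4-fold below, and in 7.84% to 8.48% of those at least 4-fold above. Across all gene IDs, change and gap had a Pearson correlation of 0.34 for replicates 1 and 0.41 for replicates 2; the adult library enters both values.

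**Figure D5:**
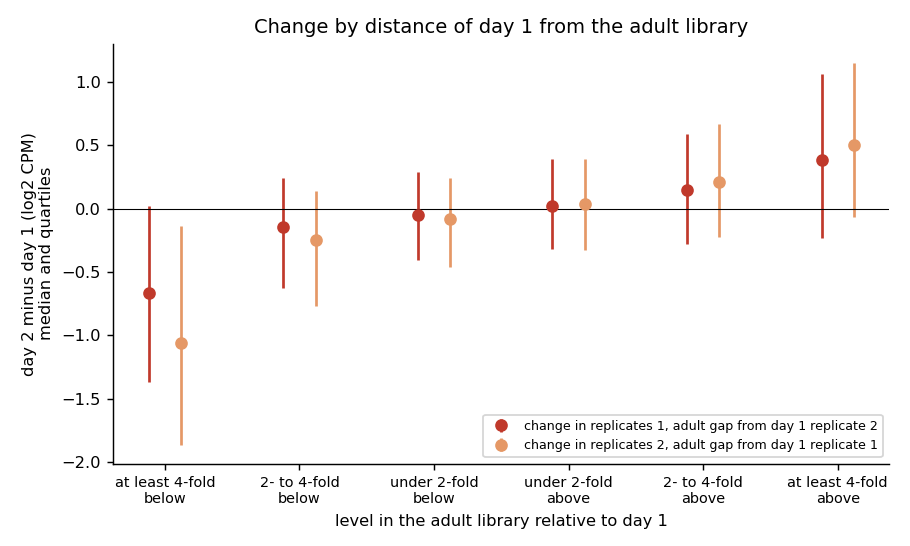
Day 2 minus day 1 in log2 CPM (median, with lines from the lower to the upper quartile) for gene IDs grouped by how far the adult library lies below or above day 1; the gap is read from the day 1 library of the other pair. Medians run from -0.67 and -1.06 where the adult library is at least 4-fold below to 0.39 and 0.51 where it is at least 4-fold above.

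The same direction held for the sets of large change. Of the 312 gene IDs at least 4-fold higher at day 2 in replicates 1, 261 (83.7%) had an adult level above replicate 2 of day 1, against 49.3% of all gene IDs. Of the 434 chosen in replicates 2, 360 (82.9%) had an adult level above replicate 1 of day 1, against 49.4% of all. The median adult level of these sets was 2.51 and 2.07 above day 1 on the log2 scale, higher than in any regenerating window. For the gene IDs at least 4-fold lower, 240 of 352 (68.2%) and 652 of 846 (77.1%) had an adult level below day 1, against 49.8% and 50.0% of all. The adult library was thus farther from day 1 than day 2 was for the sets that were higher, with medians of 1.85 at day 2 against 2.51 in the adult library in one reading, and 1.39 against 2.07 in the other. For the sets that were lower the readings differed: the 352 gene IDs had a median of -1.92 at day 2 against -1.34 in the adult library, so that day 2 lay beyond the adult level, and the 846 had -1.48 at day 2 against -1.78 in the adult library. Of the gene IDs at least 16-fold apart in both replicates, the adult library was nearer to day 2 than to day 1 for 11 of the 15 that were higher. This held for only 3 of the 7 that were lower. Over all gene IDs, 56.1% in replicates 1 and 54.3% in replicates 2 were nearer at day 2. The values that chose these 15 and 7 also enter the distance, unlike in the readings above, so these counts are no separate evidence. All of these comparisons rest on 1 adult library.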

How the data were processed

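The deposited values are raw read counts per gene ID, 1 file per library, whole numbers whose totals differ between libraries. The submitters' processing notes name Trimmomatic 0.36, HISAT2, StringTie, featureCounts, DESeq2 and Bowtie2 without their roles. Per the labels' protocols, RNA was extracted with Trizol and libraries were made with the Lexogen SENSE mRNA-Seq kit. Genome build, gene models and strand setting are not given in the sources used here, so reads of overlapping models or near-identical copies may be split between gene IDs.

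Day 2 was tested against day 1 by quasi-likelihood in edgeR 4.0.16 (with R 4.3.3 and limma 3.58.1), after filterByExpr and TMM scaling, in a robust fit to all 25 regenerating libraries that had a term for each time window, two-sided, adjusted over all 23995 gene IDs tested; 11312 were left out as low. It gives no standard error. Named gene IDs were the 2 of largest fitted fold change in each direction with an adjusted p under 0.05. Levels in CPM use TMM-scaled totals over all 26 libraries. The comparison with the adult library used log2 CPM (prior count 2) scaled over the 5 libraries. Means by gene ID, correlations and permutation tests used SciPy 1.17.1, pandas 2.3.3 and NumPy 2.4.6 under Python 3.11.15. On simulated counts of 23995 gene IDs for day 2 against day 1, with 200 changed by 2 log2 units, edgeR recovered 48.5% and made 8 false calls. The changed gene IDs had a mean of at least 1 CPM. Gene IDs varied independently in the simulation, without the replicate differences that the days share in the real libraries. The recovered share is therefore no measure of how many real changes of this size were called. The alternatives were other scalings, filters, prior counts and thresholds, thinning to equal depth, DESeq2 1.42.0, the replicate number as a block, a fit of only 4 libraries, and leaving out each library. The members and rules were chosen with earlier results of these data known. At 7425481 counts, the smallest total, low gene IDs are limited by counting error.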

Additional observations from a re-analysis of the deposited data

Results flagged for a closer look

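The levels of the 4 named gene IDs were screened by Dixon's test in the 3 windows with 4 to 6 libraries, 12 sets of values in all, of which 2 had a library apart; chance gives about 1 in 20. MSTRG.5101 reached 3.16 CPM in replicate 2 of days 3 to 4, above the other libraries of that window, which held 0.471 to 1.45 CPM. MSTRG.30563 stood at 6.40 CPM in replicate 4 of days 3 to 4, below the 10.1 to 12.0 CPM of the others. The 2 days compared have 2 libraries each, too few for this screen.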

How the results depend on the processing

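The number of called gene IDs was 7, and the same 7 were called with DESeq2 size factors, without a filter and without the robust fit. It fell to 3 under upper-quartile scaling and 0 without scaling (edgeR, 1875 at an unadjusted p under 0.05). When edgeR fitted only the 4 libraries, it was 2 among 18785 gene IDs tested, with 0 shared. Leaving out a library gave 0 to 2 in edgeR (1257 to 2292 at an unadjusted p under 0.05), and DESeq2, which gave no adjusted p for 5156 gene IDs, called 89. The labels do not say that a replicate number marks a shared animal or batch, and 2 pairs cannot settle it. The replicate differences of day 2 and of day 1 had a correlation of 0.54 across gene IDs, from 0.27 below 1 CPM to 0.76 at 10 to 100 CPM and 0.87 at 100 CPM or more. With the number as a block over all windows, edgeR called 0 of 23995 by the title (1968 at an unadjusted p under 0.05) and 3 by the set label. In a fit of the 4 libraries alone, which leaves 1 residual degree of freedom, the block gave 4267 calls among 18785 gene IDs tested. Of these calls 1860 were higher and 2407 lower, and all 7 were among them. Each named gene ID kept its direction under every alternative in which it was tested, and their adjusted p ranged from 1.12e-07 to 0.651. The 1604 gene IDs with both libraries at least 2-fold apart became 639 among the 12953 with a mean of at least 5 CPM, 10105 with any gap, 204 at 4-fold, and 2771 to 3512 with a library left out, where fewer libraries must agree. The share nearer to the adult library at day 2, 55.2%, was 50.3% without a filter and 57.8% when a mean of 5 CPM was required. The share that kept its direction in the other pair, 90.6%, was 89.8% under upper-quartile scaling, 87.2% without a filter, 92.3% at equal depth, 83.9% at 2-fold, 79.7% at a prior count of 0.5 and 96.3% when a mean of 5 CPM was required. The difference in correlation with the adult library stayed positive in all 9 alternatives (0.037 to 0.0472 with a library left out, 0.0235 without a filter). The cause of these shifts was not tested beyond what each alternative changes by construction.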

Other observations

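Gene IDs found on one day only depended on depth. In the raw counts, 160 of 35307 gene IDs had at least 1 count in both libraries of day 2 and none at day 1. The reverse held for 757. With all libraries thinned to 7425481 counts, the numbers were 380 and 594. Of the 380 found only at day 2, 224 had a count in the adult library at that depth, and of the 594 found only at day 1, 320 did. Of all 35307 gene IDs, 26158 had a count in the adult library at that depth, a larger share than in either set. At 10 or more counts in both libraries, 6 gene IDs were found only at day 2, all 6 with a count in the adult library, and 10 only at day 1, of which 5 had one. At that depth the libraries of day 2 held 26078 and 25506 gene IDs with a count, against 26265 and 26002 at day 1.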
